A study of Mus musculus with 4 samples.

Results

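The genes described here are targets of the nuclear receptor PPAR-alpha and enzymes of fatty acid oxidation and ketogenesis. A list of 36 symbols defined them, and where a gene had several probe sets the brightest on average was used. Of the 36, 34 had a probe set annotated to them alone, out of 18193 genes on the array, and all 34 lay above the filter on low signals. Cyp4a10, whose probe set was annotated to a related gene as well, and Acsl1 were not analysed here.

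The samples were livers of 2-month-old C57BL/6J mice injected in 2 rounds with the aromatic hydrocarbon ethylbenzene or with phosphate-buffered saline (PBS). The first round was 2 intraperitoneal injections 24 h apart, and the second was given after 7 days of normal feeding, with livers taken 5 h later. Each dose of ethylbenzene was 7 mmol per kg. The groups carry the first and then the second agent in their names: PBS then PBS (P+P, 3 mice), ethylbenzene then PBS (E+P, 3 mice), PBS then ethylbenzene (P+E, 5 mice) and ethylbenzene in both rounds (E+E, 5 mice). All mice of a group went into 1 RNA pool and onto 1 Affymetrix array, so no spread between mice was available and no difference could be tested. The labels used here do not state the sex of the mice or whether they had eaten before the livers were taken. A 2-fold ratio between a pair of arrays, which is 1 on the log2 scale, served as a fixed rule of size. Where 4 signals are listed, the arrays whose second agent was PBS come first (P+P, then E+P), followed by those whose second agent was ethylbenzene (P+E, then E+E). Liver markers fixed for the check of the tissue were high throughout, with Alb, the albumin gene, at 163590 to 172024 and 8 of 8 measured hepatocyte markers above the filter level of 120.0 on every array.

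PPAR-alpha is a lipid-activated transcription factor that binds DNA together with the retinoid X receptor at paired hexamers known as DR1 elements. In liver it is known for raising the capacity to burn fatty acids during fasting. Mitochondria shorten fatty acids taken in through carnitine and turn much of the acetyl-CoA into ketone bodies, peroxisomes shorten very long and branched chains, and microsomal cytochromes of the Cyp4a family oxidize the far end of the chain.

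To place these genes beside their regulatory sequence, windows from 250 bases before to 50 after the start site were read from a RefSeq promoter table (GRCm38.p6), which held windows for 27 of the 34 genes. A DR1, written as AGGNCA repeated after 1 base of any kind and sought on both strands, was present in the window of 1 of the 27, Fabp1, which encodes the abundant fatty acid binding protein of hepatocytes. It was present in 0.381% of all 32851 windows in the table. A hexamer AGGTCA on either strand, which the Fabp1 DR1 also contains, was present in 8 of 29 windows of these genes (27.6%) against 16.3% of all windows. Those 8 windows belonged to Acadm, Acadvl, Acot3 (its pair of overlapping windows), Acot4, Cd36, Cpt1a and Fabp1. Acot3 and Cd36 are among the genes at least 2-fold apart below, and no match was present in the windows of Ppara and Bdh1, which are as well. For Cyp4a14, also at least 2-fold apart, the promoter table held no window, so it could not be examined. A match describes these letters and is not evidence of binding. The windows of Fabp1 (chr6:71199629-71199928, plus strand), Cd36 (chr5:17835847-17836146, minus strand) and Acot3 (chr12:84051894-84052193, plus strand) are given with the DR1 of Fabp1 and the hexamers of Cd36 and Acot3 in capitals. They run 5′ to 3′ along the gene's strand, so capitals that read TGACCT are the hexamer on the opposite strand.
Fabp1: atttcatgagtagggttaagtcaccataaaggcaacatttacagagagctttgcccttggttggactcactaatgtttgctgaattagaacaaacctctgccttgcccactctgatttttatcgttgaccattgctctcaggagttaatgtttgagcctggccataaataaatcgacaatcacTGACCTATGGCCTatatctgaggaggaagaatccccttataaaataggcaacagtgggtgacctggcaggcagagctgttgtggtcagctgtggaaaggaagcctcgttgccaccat
Cd36: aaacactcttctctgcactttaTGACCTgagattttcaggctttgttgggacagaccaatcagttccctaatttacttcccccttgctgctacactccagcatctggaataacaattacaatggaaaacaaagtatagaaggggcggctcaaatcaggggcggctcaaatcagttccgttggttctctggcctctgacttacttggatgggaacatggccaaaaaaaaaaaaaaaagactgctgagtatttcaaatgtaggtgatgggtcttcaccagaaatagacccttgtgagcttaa
Acot3: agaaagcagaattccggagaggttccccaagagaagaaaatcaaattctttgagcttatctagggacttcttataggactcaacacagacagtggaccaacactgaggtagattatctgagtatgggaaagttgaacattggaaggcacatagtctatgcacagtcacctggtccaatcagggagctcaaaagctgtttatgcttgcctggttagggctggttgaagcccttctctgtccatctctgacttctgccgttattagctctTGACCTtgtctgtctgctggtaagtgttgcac

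The arrays were not alike in quality. Control probe sets for 18S ribosomal RNA had a geometric mean signal of 1872 on P+P and of 122 to 182 on the other arrays. The Pcx control had a 3′ over 5′ signal ratio of 23.5 on P+P and 6.15 to 12.0 elsewhere. The other such controls differed less, with Actb at 4.55 on P+P and 3.48 to 3.84 elsewhere, and Gapdh at 1.06 and 0.91 to 0.97. The comparison of E+E with E+P does not use the P+P array, although its arrays also differed in the Pcx ratio (12.0 and 7.21). Values of the second exposure are therefore given for both comparisons, P+E over P+P first and E+E over E+P second. Pools held 3 mice where the second agent was PBS and 5 where it was ethylbenzene, and these factors cannot be told apart.

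Ppara itself, which encodes the receptor, was lower on both arrays whose second agent was ethylbenzene. Its normalised signal was 4614 and 5402 after PBS (P+P and E+P) and 2069 and 1828 after ethylbenzene (P+E and E+E). Both arrays after ethylbenzene thus lay below both arrays after PBS, by 2.20-fold (-1.14 on the log2 scale) and 2.91-fold (-1.54). A second probe set of Ppara read 3811, 4967, 968 and 1241 in the same order, with log2 ratios of -1.93 and -1.96. The remaining probe set read 1607, 5018, 1322 and 1485, so its first ratio was only -0.27 while its second was -1.73. The P+P value is where the 3 probe sets part, and without the P+P array all of them were at least 2-fold lower.

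Over the 34 genes, 2 were at least 2-fold higher and 2 at least 2-fold lower in P+E over P+P, beside 6.64% and 6.86% of the 11509 genes past the filter. On E+E against E+P none was at least 2-fold higher and 3 were at least 2-fold lower, beside 7.04% and 6.86%. In both comparisons, on the probe sets used, none was at least 2-fold higher and 2, Ppara and Bdh1, were at least 2-fold lower, beside 2.94% and 1.9%. The counts of a single comparison are close to the background, and with 34 genes none higher against 7.04% is not far from it. Raising the filter to the 75th percentile of signal left 33 of the 34 genes and 6857 genes in all, with the same counts of members. The backgrounds were then 5.19% and 3.88% for P+E over P+P, 5.51% and 4.29% for E+E over E+P, and 3.57% and 1.81% for both together. The median log2 ratios of the list were -0.14 and -0.15, beside -0.07 and -0.05 for all genes. Both ratios lay on the same side of 0 for 29 of the 34 genes, beside 65.2% of all genes. Below 0 in both were 21 (37.4% of all genes), and above 0 in both were 8 (27.7%). With the higher filter these were 29, 21 and 8 of 33 genes, beside 71%, 42.1% and 28.9%.

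**Figure D1:**
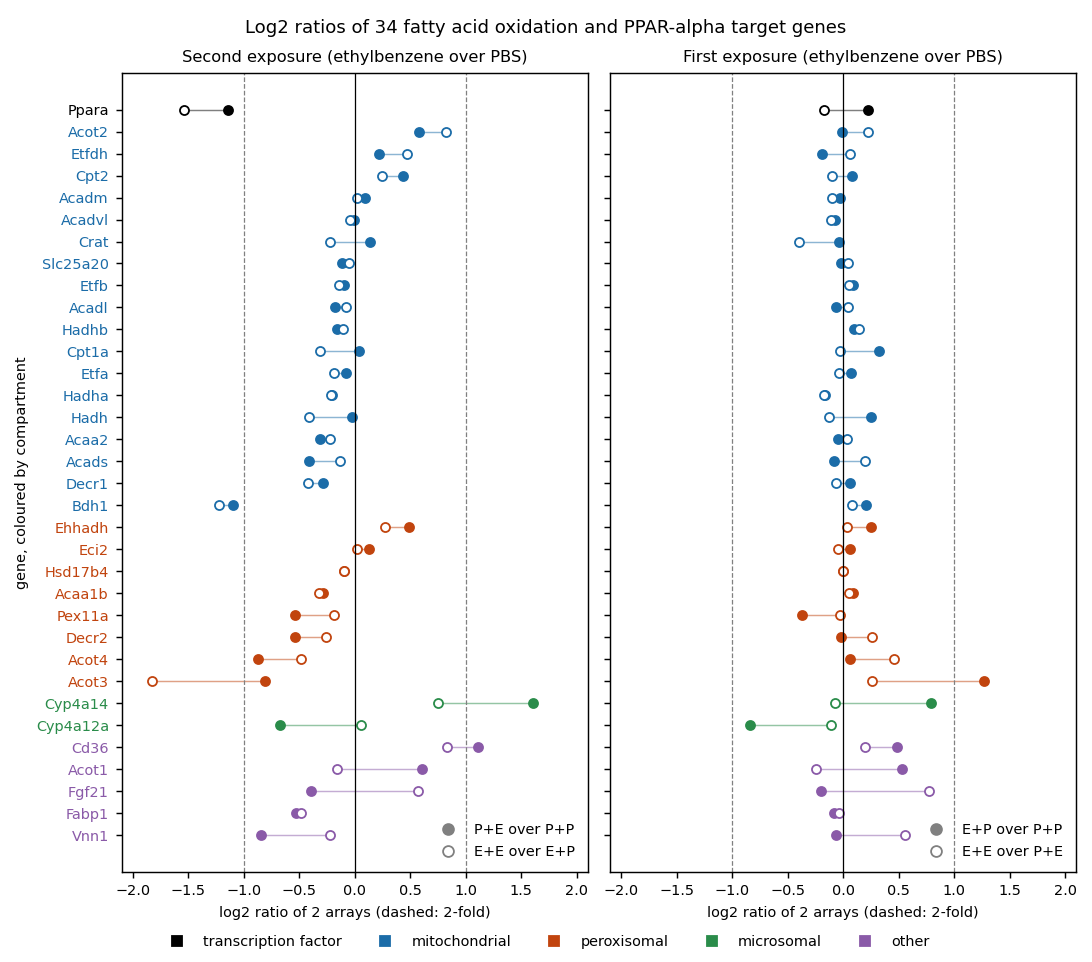
Log2 ratios of the 34 genes, one gene per line and grouped by compartment, for the second exposure (left: filled, P+E over P+P; open, E+E over E+P) and the first exposure (right: filled, E+P over P+P; open, E+E over P+E). Each point is a ratio of 2 arrays without replicates, and dashed lines mark 2-fold; most mitochondrial genes lie within 0.5 of 0, while Ppara and Bdh1 lie beyond -1 in both second-exposure ratios.

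The genes of carnitine-dependent entry into mitochondria had ratios within 0.5 of 0 on the probe sets used, and dimmer probe sets often disagreed. Cpt1a, the outer membrane carnitine palmitoyltransferase that limits entry, had signals of 9339, 11676, 9609 and 9405. The E+P array was the highest and the other 3 were nearly level, which gave log2 ratios of 0.04 and -0.31. Its dimmer probe sets gave -0.11 and -0.81, and 0.54 and 0.68. Slc25a20, the carrier that exchanges acylcarnitine for carnitine across the inner membrane, was at -0.11 and -0.05. Cpt2, which reforms acyl-CoA inside, was at 0.43 and 0.25, and at -0.30 and -0.06 on a dimmer probe set. Crat, the carnitine acetyltransferase found in mitochondria and peroxisomes, was at 0.13 and -0.23, but its other probe sets disagreed widely, with first ratios of -2.30 and 2.31, and its value is uncertain.

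The dehydrogenases of the first step of mitochondrial oxidation were close to level. Acadvl, Acadl, Acadm and Acads, which act on very long, long, medium and short chains, had log2 ratios of -0.01, -0.18, 0.09 and -0.41 on P+E against P+P and of -0.05, -0.08, 0.02 and -0.13 on E+E against E+P. The electron transfer flavoprotein genes Etfa (-0.08 and -0.19) and Etfb (-0.10 and -0.14), which take up the electrons of that step, were likewise near 0. Etfdh, the dehydrogenase that passes those electrons on to ubiquinone, was above 0 in both comparisons, by 0.21 and 0.47 on the log2 scale.

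Genes of the later steps were below 0 in both comparisons on the probe sets used. Hadha and Hadhb encode the subunits of the mitochondrial trifunctional protein and are transcribed away from each other. Their RefSeq promoter windows overlap in 228 bases (chr5:30155003-30155230, GRCm38.p6). The Hadhb window (chr5:30155003-30155302, plus strand) is given with the shared part in capitals, to show how close the start sites of this pair lie.
Hadhb: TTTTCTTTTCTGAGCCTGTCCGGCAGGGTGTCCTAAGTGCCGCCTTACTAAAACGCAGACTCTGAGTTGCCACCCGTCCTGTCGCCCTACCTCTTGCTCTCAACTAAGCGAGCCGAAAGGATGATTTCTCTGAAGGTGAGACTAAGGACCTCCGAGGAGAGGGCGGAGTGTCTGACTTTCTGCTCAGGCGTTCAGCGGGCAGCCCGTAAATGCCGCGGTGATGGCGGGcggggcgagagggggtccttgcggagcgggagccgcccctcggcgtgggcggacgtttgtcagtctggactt
Hadha was at -0.20 and -0.22 and Hadhb at -0.16 and -0.11, each below 0 in both comparisons and far from 2-fold. Their first-exposure ratios had opposite signs, -0.16 and -0.18 for Hadha and 0.09 and 0.14 for Hadhb, and other probe sets of Hadhb gave -0.05 and -0.69, and 0.70 and -0.29, for the second exposure. Hadh, the short-chain 3-hydroxyacyl-CoA dehydrogenase, was at -0.03 and -0.41, with other probe sets at -0.06 and -0.32 and, for a dim one, -0.06 and 1.56. Acaa2, the mitochondrial thiolase, was at -0.31 and -0.23, and its other probe sets gave -0.26 and -0.05, and 0.05 and -0.24. Decr1, an auxiliary reductase for unsaturated chains, had signals of 11385, 11917, 9342 and 8914. Both of its ethylbenzene arrays were below both PBS arrays (-0.28 and -0.42). A dimmer Decr1 probe set read 2025, 1930, 1954 and 1537 (-0.05 and -0.32), without that separation.

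Among the 18 mitochondrial genes, 16 had ratios within 0.5 of 0 in each comparison, beside 62.3% and 61.7% of all genes (69.1% and 69.1% with the higher filter), and the medians were -0.09 and -0.14. The genes outside that range were Bdh1 and Acot2 in both. Bdh1 encodes the dehydrogenase that converts acetoacetate to 3-hydroxybutyrate, the last step of ketogenesis. Its signals were 11676 and 13486 after PBS and 5452 and 5754 after ethylbenzene. The ethylbenzene arrays did not overlap the PBS arrays and were 2.13-fold and 2.33-fold lower (log2 ratios -1.09 and -1.22). A second Bdh1 probe set gave -1.10 and -1.26, from signals of 1099, 1322, 488 and 527. Acot2, a thioesterase that releases free fatty acids from acyl-CoA in mitochondria, went the other way, with 612, 605, 937 and 1102 and log2 ratios of 0.58 and 0.82. Its other probe set had a signal below the filter level on 2 arrays and ratios of -0.39 and -0.17.

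**Figure D2:**
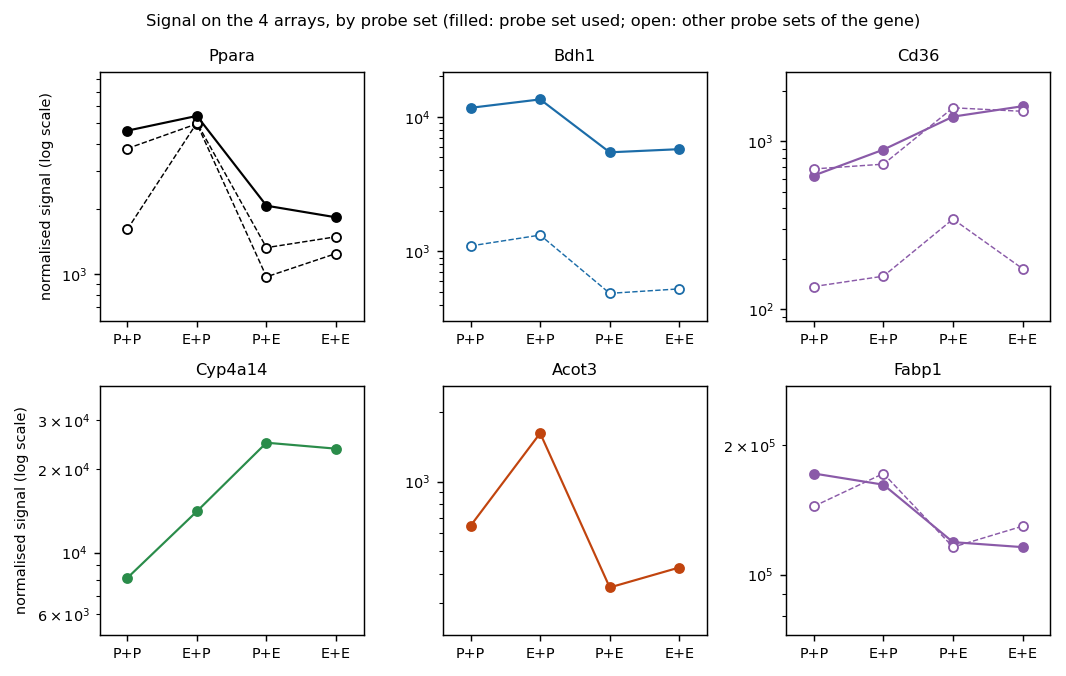
Normalised signal of 6 genes on the 4 arrays (log axis, 1 value per array and no error), with filled points for the probe set used and open points for other probe sets; lines join the values of 1 probe set. The Ppara and Bdh1 probe sets are lower on P+E and E+E than on E+P, and 1 Ppara probe set is low on P+P as well.

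Of the 8 peroxisomal genes, 6 were below 0 and 2 above 0 in both comparisons, beside 37.4% and 27.7% of all genes (42.1% and 28.9% with the higher filter). Their medians were -0.41 and -0.22, against -0.09 and -0.14 for the mitochondrial genes and -0.07 and -0.05 for all genes. Whether these differences exceed the spread between mice cannot be tested on single arrays. Ehhadh, the peroxisomal bifunctional enzyme and a typical PPAR-alpha target, read 6760, 8052, 9500 and 9726. It was lowest on P+P and was higher after ethylbenzene by 0.49 and 0.27. Hsd17b4, the other multifunctional enzyme of peroxisomes, was at -0.10 and -0.09. Eci2, an enoyl-CoA isomerase, was at 0.13 and 0.02, and the thiolase Acaa1b at -0.29 and -0.32, which the deposited signals put at -0.09 in each. Pex11a, which takes part in peroxisome division, was at -0.54 and -0.19.

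Decr2, the peroxisomal counterpart of Decr1, had signals of 3472, 3425, 2382 and 2856, with both ethylbenzene arrays below both PBS arrays (-0.54 and -0.26). Acot4, a peroxisomal thioesterase, read 718, 752, 371 and 525, in the same pattern (-0.88 and -0.49), and a second probe set gave -0.65 and -0.25. Acot3, another peroxisomal thioesterase, read 645 and 1618 after PBS (P+P and E+P) and 349 and 426 after ethylbenzene. It was highest on E+P and lower on the arrays whose second agent was ethylbenzene, by 1.75-fold (-0.81) and 3.54-fold (-1.82). The only probe set for Acot3 has an identifier ending in _s_at, the mark of probes that may match more than 1 transcript, so related thioesterases can contribute to its signal.

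The genes Acot2, Acot1, Acot4 and Acot3 lie in this order on chromosome 12, with their promoter windows within 64.6 kb (GRCm38.p6). Their first ratios along the cluster were 0.58, 0.61, -0.88 and -0.81, and their second ratios 0.82, -0.16, -0.49 and -1.82. Acot4 and Acot3, which encode the peroxisomal enzymes, were below 0 in both comparisons, and Acot2, which encodes the mitochondrial one, was above 0 in both. Acot1, the cytosolic thioesterase, read 1275, 1861, 1967 and 1656, lowest on P+P and similar on the other 3 arrays. These genes are close relatives, and their probe sets can share signal.

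Of the microsomal fatty acid hydroxylases, Cyp4a14, a strongly PPAR-alpha-responsive one, read 8107 and 14066 after PBS (P+P and E+P) and 24809 and 23614 after ethylbenzene. Both ethylbenzene arrays lay above both PBS arrays, by 3.05-fold (1.61) and 1.68-fold (0.75). Its signal on E+P was also above that on P+P (0.79), and P+E and E+E were nearly level. Cyp4a12a, whose expression is typically male-predominant in mice, read 16494, 9178, 10309 and 9563. It was high on P+P and nearly level on the other 3 arrays, so that its ratios were -0.68 and 0.06. Probe sets of Cyp4a genes can cross-match, and these values are uncertain to that extent.

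Genes that carry fatty acids into or through the cell divided. Cd36, a fatty acid translocase of the plasma membrane, read 626, 893, 1404 and 1619. Both ethylbenzene arrays were above both PBS arrays, by 2.16-fold (1.11) and 1.78-fold (0.83), and a second probe set read 685, 732, 1585 and 1510 in the same pattern. The remaining and dimmer one gave 1.11 and 0.12. Fabp1, whose promoter window held the DR1, had signals of 172024, 162010, 119053 and 115906, with both ethylbenzene arrays lower (-0.53 and -0.48). The size depended on the normalization. The deposited signals of the same probe set, 151500, 152512, 124231 and 132189, gave -0.29 and -0.21 with the same separation, and scaling to a common 75th percentile gave -0.35 and -0.24. Its second probe set gave -0.32 and -0.41, and -0.10 and -0.15 as deposited, where it was the brighter of the pair.

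Vnn1, a membrane-anchored pantetheinase and PPAR-alpha target, read 3730, 3556, 2054 and 3043. It was lowest on P+E, with ratios of -0.85 and -0.22, and -0.32 and -0.37 on a second probe set. Fgf21, the fasting hormone secreted by liver under PPAR-alpha, had low signals of 214, 182, 153 and 291. It was highest on E+E and lowest on P+E (-0.39 and 0.57), without a common direction.

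Cd36 is also expressed outside hepatocytes, and in bulk tissue more cells of a type and more RNA per cell cannot be told apart. Of 7 adipocyte markers 5 were measured, with summed signals of 841, 1108, 2950 and 2968, most of it from Fabp4. Adipoq was at 66.1, 19.6, 226 and 19.8, above the filter level on P+E alone, and Cidec at 134, 118, 147 and 297, highest on E+E. Lep and Retn were below the filter level on all arrays. The 5 sinusoidal endothelial markers summed to 7518 to 7901 on every array, but they did not move together. Lyve1 was at 321, 170, 1987 and 2218. Stab2 (-0.41 and -0.26), Clec4g (-0.42 and -0.51) and Kdr (-0.94 and -0.92) were below 0 in both comparisons, and Oit3 was at 0.33 and -0.75. The 8 Kupffer cell markers summed to 12725, 20484, 11738 and 13874. The 6 neutrophil markers summed to 1152, 617, 3843 and 6316, with S100a8 and S100a9 supplying most of the later pair. They did not move together either. Ngp, Camp, Ltf and Mpo had first ratios of -0.89, -1.51, -1.10 and -1.41, opposite in sign to those of S100a8 and S100a9. Their second ratios were 1.33, 0.06, 1.49 and 0.05. Ltf and Mpo were below the filter level on all arrays but P+P, and Camp was below it on P+E. With low signals set to that level, Camp, Ltf and Mpo were at least 1.61-fold, 1.38-fold and 1.26-fold lower in the first comparison. Ltf and Mpo were then level in the second. The 7 pancreatic acinar markers summed to 640, 564, 6677 and 6284, and the 6 muscle markers to 671, 970, 3654 and 755. The part of any of these cells in the Cd36 ratios was not tested.

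**Figure D3:**
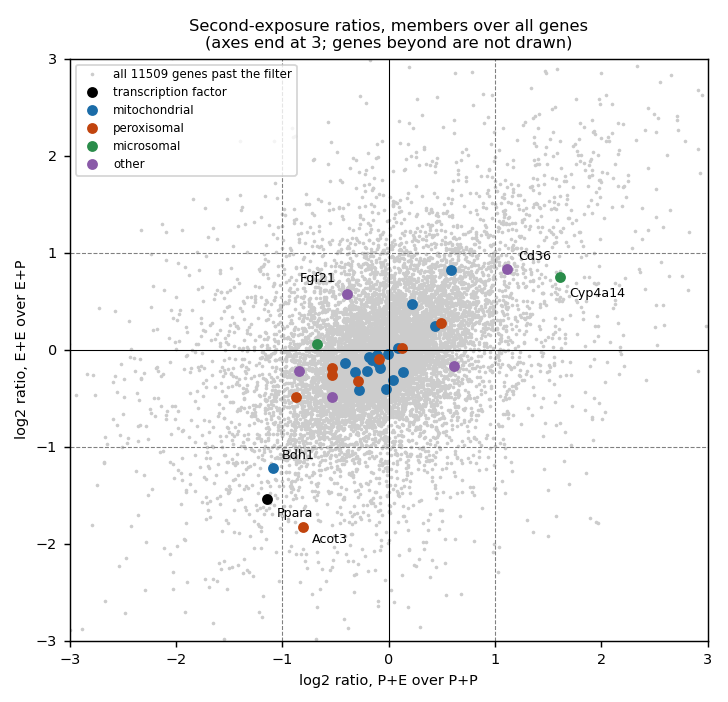
Second-exposure log2 ratios of 2 arrays each, P+E over P+P (x axis) and E+E over E+P (y axis), for all 11509 genes past the filter in grey and the 34 genes coloured by compartment, with dashed lines at 2-fold. Ppara and Bdh1 lie in the lower left beyond both lines, Cd36 and Cyp4a14 beyond 1 on the x axis alone and Acot3 beyond -1 on the y axis alone. Each gene is drawn by the probe set used, and other probe sets are not shown.

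The first exposure, read 7 days later, was compared as E+P over P+P and as E+E over P+E. Of the 34 genes, 1 was at least 2-fold higher and none lower in E+P over P+P, beside 2.64% and 2.84% of all genes (0.583% and 0.496% with the higher filter). None was at least 2-fold apart on E+E against P+E, beside 4.12% and 4.09% (0.671% and 0.744%). The gene was Acot3, 2.41-fold higher (1.27) on E+P and at 0.26 on E+E against P+E. Ratios within 0.5 of 0 were found for 30 and 32 of the 34 genes (78.5% and 73.2% of all genes, or 89.4% and 86.6% with the higher filter), and the medians were 0.03 and 0.02. All 18 mitochondrial genes were within 0.5 in both comparisons. Ppara was at 0.23 and -0.18 and Bdh1 at 0.21 and 0.08, both short of 2-fold.

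Whether the response to ethylbenzene in the second round differed with the first agent was described by subtracting the P+E over P+P ratio from the E+E over E+P ratio. A difference of at least 1 in size was reached by 1 of 34 genes, Acot3 (-1.01), beside 8.22% of all genes at 1 or above and 7.13% at -1 or below (2.46% and 1.98% with the higher filter). Its signal was 1618 against 645 on the arrays after PBS and 426 against 349 on those after ethylbenzene. Fgf21 (0.97), Cyp4a14 (-0.86), Acot1 (-0.77) and Cyp4a12a (0.73) came next in size, and the mitochondrial genes ranged from -0.38 to 0.28. Each difference holds the error of all 4 arrays, that of P+P included, and cannot be told from it.

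Of 110 other genes of the pathway, 98 were measured and 96 were past the filter. The others were not analysed here. In both comparisons of the second exposure 8 of the 96 were at least 2-fold higher and 1 was at least 2-fold lower, beside 2.94% and 1.9% of all genes. Among the 8, Pdk4, Slc16a6 and Hilpda were below the filter level on both PBS arrays and passed it only through the ethylbenzene arrays. The list was also chosen with earlier results of these data known, so the counts only describe it. The medians of the 96 were -0.14 and -0.21.

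Genes of export and carnitine uptake were among the 8. Slc16a1, a monocarboxylate carrier that moves lactate and ketone bodies, read 1615, 1492, 4362 and 5735 and was higher by 1.41 and 1.91. Slc16a6, a related carrier that exports ketone bodies from liver, read 61.2, 80.6, 1097 and 833, at least 6.98-fold and 5.37-fold higher when the low signals are set to the filter level. Slc22a5, the carnitine importer of the plasma membrane, read 1355, 1294, 2807 and 3085 and was higher by 1.03 and 1.23. These carriers were higher on the arrays on which Bdh1 was lower.

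Other higher genes concern lipid storage and fuel choice. Pdk4, which restrains pyruvate oxidation, read 112, 59.0, 3220 and 7895, and was at least 20.0-fold and 48.6-fold higher. Plin2, which coats lipid droplets, read 8357, 9032, 30894 and 31231 (1.88 and 1.78). Hilpda, another lipid droplet protein, read 56.5, 12.1, 506 and 737, at least 3.37-fold and 4.78-fold higher. In all 3 genes both ethylbenzene arrays lay above both PBS arrays. Fabp4, a fatty acid binding protein that is also the adipocyte marker named above, read 595, 851, 2441 and 2492, 3.89-fold and 2.84-fold higher. Angptl4, an inhibitor of lipoprotein lipase and PPAR target, read 4436, 3060, 7284 and 8650 (0.71 and 1.49), above both PBS arrays but short of 2-fold in the first comparison.

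Values for partners of the receptor and for other regulators varied. Rxra, its main dimer partner, read 5121, 4566, 3584 and 3185, with both ethylbenzene arrays below both PBS arrays (-0.51 and -0.51). The related Rxrb and Rxrg were named after their values were seen. Rxrb was at -1.10 and -0.18. Rxrg read 147, 162, 284 and 31.0, at 0.78 and, with E+E at the filter level, at least 1.26-fold lower. Ppargc1a, a coactivator of fasting metabolism, read 380, 331, 222 and 45.0, with ratios of -0.67 and, with E+E at the filter level, at least 2.29-fold lower. Its relative Ppargc1b, named after its values were seen, read 691, 1017, 413 and 90.7, at least 6.49-fold lower in the second comparison. Nrip1, a corepressor of nuclear receptors, was higher by 1.41 and 1.47, from 735, 826, 2029 and 2370. Lpin2, a phosphatidate phosphatase and the only gene of the 96 at least 2-fold lower in both, was lower, from 10267, 10159, 4437 and 2743 (-1.20 and -1.87).

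**Figure D4:**
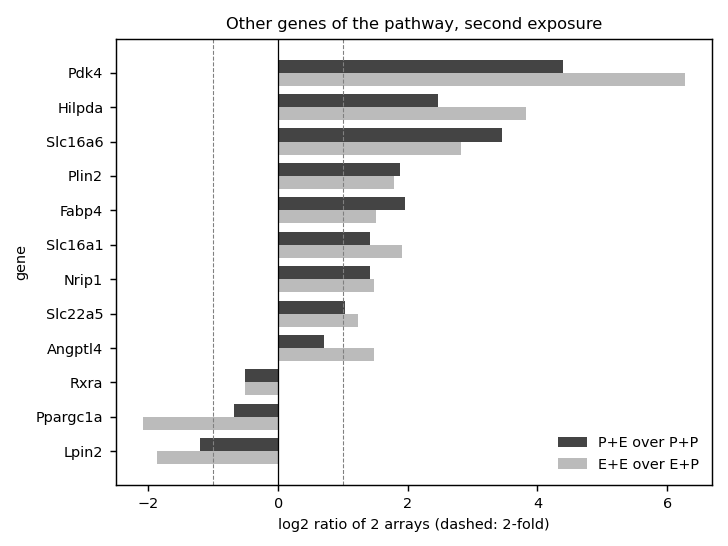
Log2 ratios of 2 arrays, without replicates, for the second exposure in 12 other genes of the pathway (dark bars, P+E over P+P; light bars, E+E over E+P), with dashed lines at 2-fold. Pdk4, Hilpda and Slc16a6, all with low signals after PBS, have the longest bars, and Lpin2, Ppargc1a and Rxra lie below 0 in both. Low signals were not set to the filter level here, so bars that use them are longer than the lower bounds in the text.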

How the data were processed

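Pooled liver RNA of each group was measured on 1 array, with 10 μg of total RNA per pool used for biotinylated cRNA, per the labels. The deposited values were linear probe set intensities for 45101 probe sets. The summarising software was not given in the sources used here, and after removal of the lowest and highest 2% the mean was 500.0 on every array. The log2 medians lay 0.24 apart, so the deposited intensities were quantile-normalized and expressed as log2(signal + 43.2), where 43.2 is the 25th percentile of the deposited intensities over the 4 arrays. A ratio is a difference of such log2 values and understates differences of dim genes. Depth does not apply to arrays, and 1 array per group limits the precision.

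Symbols came from the platform annotation, updated through Entrez identifiers in a RefSeq table (GRCm38.p6): 34958 probe sets had 1 symbol, 932 several and 9211 none listed, and names were found for 34754 of the first. Genes were kept if their mean log2 value was no lower than the median over probe sets, which is a signal of 120.0. Where a signal fell below that level, the fold was computed against the level and is a lower bound. Log2 ratios, those of cell markers and in the figures included, were computed without this floor.

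The members and lists were chosen with earlier results of these data known. Signals were given for members at least 2-fold apart in any ratio or difference, for Ppara, Cpt1a, Acot1, Ehhadh and Fgf21, for the 3 of each compartment with the largest mean size of the second-exposure ratios, and for other pathway genes 2-fold or more apart in 1 direction in both, with Pdk4, Angptl4, Rxra and Ppargc1a. Python 3.11.15, pandas 2.3.3 and numpy 2.4.6 were used, and the steps were tested on simulated arrays. The alternatives were the normalization, pseudocount, filter, probe set choice and a floor for low signals.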

Additional observations from a re-analysis of the deposited data

Results flagged for a closer look

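With 1 array per group, no array could be set apart from others of its own group. For 5 genes the ratios of an exposure lay on opposite sides of 0 and 0.5 or more apart. These differences were not tested. Cyp4a12a was at -0.68 and 0.06 for the second exposure (difference 0.73), and its P+P signal was the one that stood apart. Acot1 was at 0.61 and -0.16 for the second exposure and at 0.53 and -0.24 for the first, a difference of -0.77 by either reading. Fgf21 was at -0.39 and 0.57 for the second exposure and at -0.20 and 0.77 for the first (0.97). Cyp4a14 was at 0.79 and -0.07 for the first exposure (-0.86), and Vnn1 at -0.07 and 0.56 (0.63).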

How the results depend on the processing

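Counts of the genes at least 2-fold apart were recomputed under 9 alternatives, for 8 counts (4 ratios, each direction). They were equal to the values above or within 1.5 times of them, except that without probe sets ending in _s_at or _x_at the count of higher genes for E+P over P+P went from 1 to 0, since Acot3 then had no probe set. No ratio or difference of a single gene that was at least 2-fold turned its direction under these alternatives. Of the 136 ratios of the 34 genes, 5 changed sign in the deposited signals and 8 with a common 75th percentile, each at most 0.09 in size in the values above. They include Fabp1 for E+P over P+P (-0.09, against 0.32 and 0.29), the 1 gene whose brightest probe set differed under these settings. With its probe set held, an alternative chosen after seeing the data, that ratio was 0.01 and -0.02. With a pseudocount of 100 the difference of Acot3 was -0.98, short of 2-fold, and with a pseudocount of 16 that of Fgf21 reached 1.08. With the filter at the 75th percentile Fgf21 was no longer past it, which left 33 genes. No paired analysis was possible because each group is 1 array. Of 25 further probe sets past the filter, from 18 of the genes, 20 had the sign of the probe set used in each second-exposure comparison. Their log2 ratios were within 0.5 of that probe set for 17 in P+E over P+P and 20 in E+E over E+P. The values describe 4 pools and not the spread between mice, and dim genes such as Fgf21 are the least certain.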
